A study of Mus musculus with 8 samples.

Results

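The integrins, selectins, cadherins and protocadherins, which hold cells to each other and to the matrix, were followed in pro-B cells that lack the miR-15 family. Genes were taken by symbol: those beginning with Itga or Itgb, those beginning with Cdh or Pcdh followed by a digit, and the selectins with their ligand *Selplg*. This gave 70 of the 24746 genes of the count table, of which 23 had no read in any library, 18 had reads but too few to be tested, and 29 were tested. The 70 were 18 integrin alpha subunits, 9 integrin beta subunits, 4 proteins named after integrins that are not subunits, 3 selectins, the selectin ligand *Selplg*, 23 cadherins and 12 protocadherins.

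RNA was sequenced from pro-B cells sorted by FACS from bone marrow of 4 DKO mice (genotype miR-15a/bfl/fl Vav-Cre) and 4 control mice (miR-15a/b+/+ Vav-Cre), all on the C57BL/6 strain background and aged 10 to 12 weeks, with 1 library per mouse. Both groups carry Vav-Cre, which is active throughout the blood system, so in DKO mice both floxed clusters, on chromosomes 14 and 3, are deleted in all blood cells and not in the B lineage alone. Library totals ran from 38073065 to 43288133 counts in DKO and from 38257907 to 41530921 in control mice, and 3 counts correspond to 0.0693 to 0.0804 CPM (counts scaled to library size with TMM factors). The targeted *Mir16-1* had 0 reads in each DKO library, against 5, 1, 2 and 4 reads in control mice 1 to 4. *Mir15a* and *Mir16-2* had 1 read each, in control mouse 3, and *Mir15b* had 0 in every library. These counts therefore cannot show the loss of the cluster on chromosome 3.

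Integrins are pairs of an alpha and a beta subunit that bind matrix proteins or counter-receptors once they are switched on from inside the cell. In bone marrow the alpha4 beta1 pair (VLA-4) holds B cell progenitors to stromal VCAM-1 and fibronectin, while the beta2 pairs, LFA-1 with the *Itgal* chain and Mac-1 with the *Itgam* chain, are leukocyte integrins. Selectins bind sugars on proteins such as PSGL-1 (*Selplg*) and let leukocytes roll on vessel walls. Cadherins and protocadherins bind their own kind on neighbouring cells, and protocadherins are best known from neurons.

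The deleted miRNAs are shown because the seed, bases 2 to 8 and in capitals here, is what they share and what was searched for in the adhesion genes. The mature sequences are those of RefSeq (GRCm38.p6), and miR-16-5p is encoded in both clusters.
miR-15a-5p: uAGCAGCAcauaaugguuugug
miR-15b-5p: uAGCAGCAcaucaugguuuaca
miR-16-5p: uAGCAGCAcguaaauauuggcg

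Matches to this seed were searched on the sense strand of the longest annotated 3' UTR of each gene (GENCODE M21, build GRCm38) as TGCTGCTA (an 8mer), TGCTGCT not followed by A (a 7mer-m8) or GCTGCTA not preceded by T (a 7mer-A1), and each gene was counted under its longest match. Of the 29 tested adhesion genes, 7 (24.1%) held a match, against 27.9% of the 11810 tested genes with an annotated 3' UTR. The only 8mer among the 29 lay in *Pcdh9*, and 4.47% of the tested genes with an annotated 3' UTR held one. The 7mer-m8 was the longest match in *Selp*, *Itgb4*, *Itga1*, *Itgav* and *Itgb1*, and the 7mer-A1 in *Itgam*. *Itga4*, *Pcdh11x* and *Itgal*, described further on, held none of these letters in this window. The sites of the more abundant genes are printed 5' to 3' with the match in capitals, and the *Itgav* site is the first of 7 overlapping matches in a run of repeated letters.
*Pcdh9*, 8mer, chr14:93015208-93015237, minus strand: tgaccctggacTGCTGCTAtgaacaataga
*Itgav*, 7mer-m8, chr2:83804143-83804171, plus strand: gtggtctcagcTGCTGCTgctgctgctgc
*Itgb1*, 7mer-m8, chr8:128732995-128733023, plus strand: gtaagctgtccTGCTGCTtgcaggactac
*Itgam*, 7mer-A1, chr7:128117697-128117725, plus strand: gtgttagggaaGCTGCTAatgggtccttc

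The first question was which adhesion genes the pro-B cells transcribe at all. Levels of different genes were compared as CPM per kilobase of exon. *Selplg* had a mean of 141 in DKO mice, against 113 in control mice. Below it came *Itgb1bp1* with 61.5 in DKO and 74.9 in control mice, *Itgb1* with 20.3 and 19.3, *Itgb3bp* with 18.9 and 26.5 and *Itgb2* with 17.5 and 14.9. The alpha chains were lower: *Itgam* had 11.3 in DKO and 7.20 in control mice, *Itga4* 7.34 and 11.8, *Itga5* 4.94 and 4.58, and *Itgal* 4.21 and 2.94. Of the 70 genes 13 reached a mean of 5 CPM, and no cadherin did. In the plot of levels by gene the points of neighbouring genes overlapped along most of the order.

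**Figure D1:**
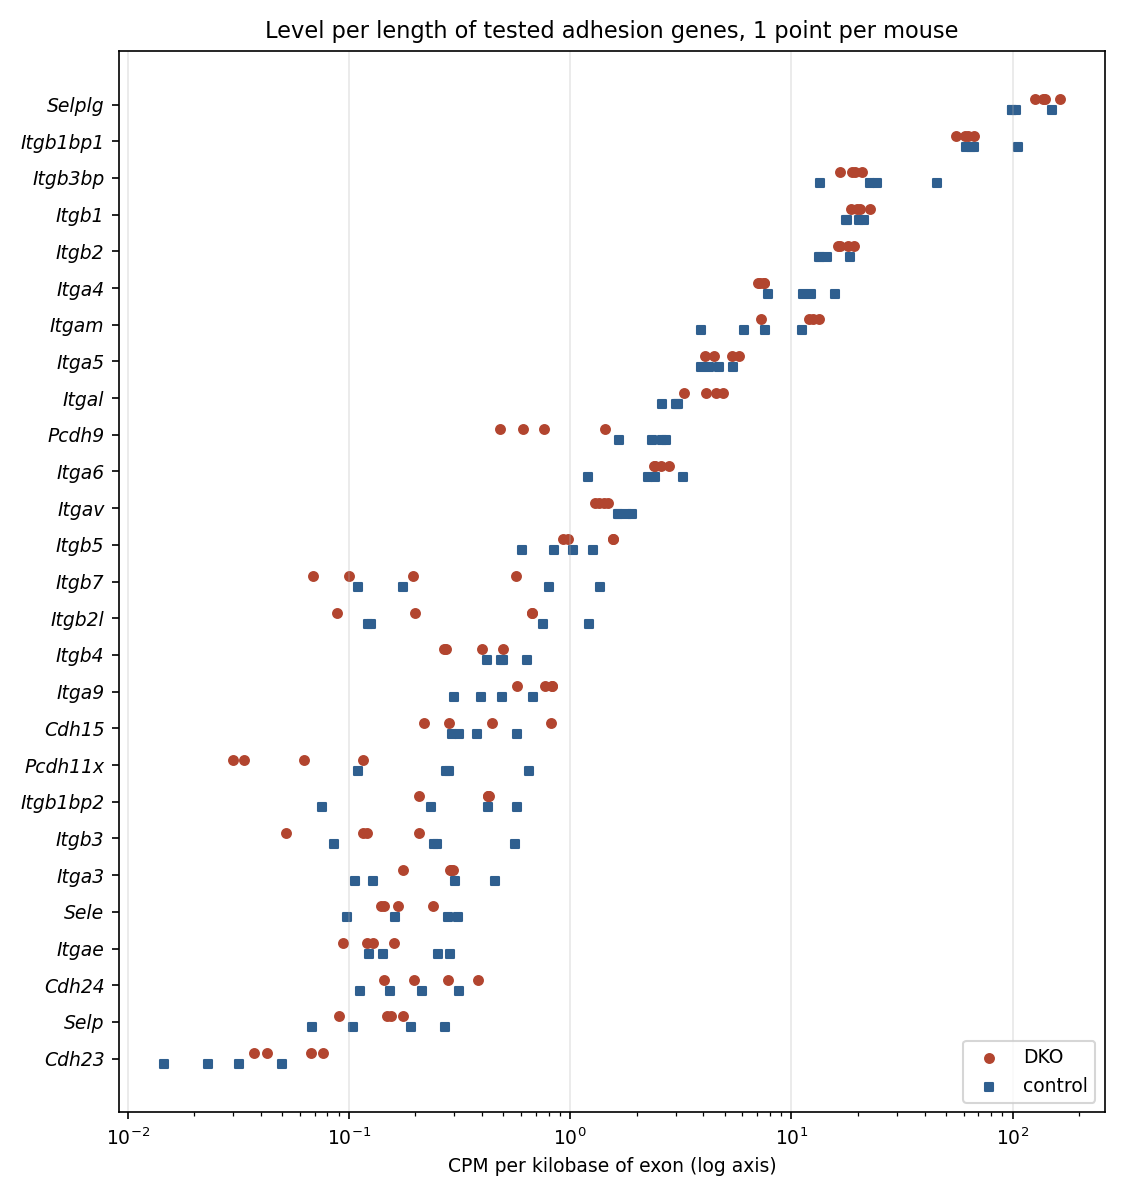
Level of tested adhesion genes as CPM per kilobase of exon (log axis), 1 point per mouse, with DKO as circles above control as squares; *Itga1*, which had no read in DKO mouse 3, is not drawn. *Selplg* lies at the top, with a mean of 113 in control mice, and the cadherins *Cdh15*, *Cdh23* and *Cdh24* lie below 1.

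Over the 29 tested genes, 3 fell in DKO cells and 0 rose (edgeR's quasi-likelihood test, adjusted p under 0.05 over all 12714 tested genes). Those that fell were the protocadherins *Pcdh9* and *Pcdh11x* and the integrin alpha subunit *Itga4*. The share that fell was 10.3%, against 1.93% of all tested genes, and the share that rose was 0, against 2.65%. Without adjustment 9 had a p under 0.05 (31.0%, against 20.2% of all tested genes), 5 of them higher and 4 lower in DKO cells. EdgeR's likelihood ratio test called 2 of the 29 higher and 3 lower (4.08% and 3.63% of all tested genes), DESeq2 called 2 higher and 3 lower (5.30% and 4.47%), and limma-voom called 0 higher and 1 lower (2.74% and 1.77%). The higher calls included *Itgal* with either tool. Groups did not overlap for 5 of the 29 genes (17.2%, against 13.8% of all tested genes): the DKO mice were all higher for 2, among them *Itgal* (6.90%, against 7.63%), and all lower for 3, *Pcdh9*, *Itga4* and *Itgav* (10.3%, against 6.21%). The median log2 fold change of the 29 genes, DKO over control, was 0.070, beside -0.015 for all tested genes, with 15 above 0 and 14 below.

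**Figure D2:**
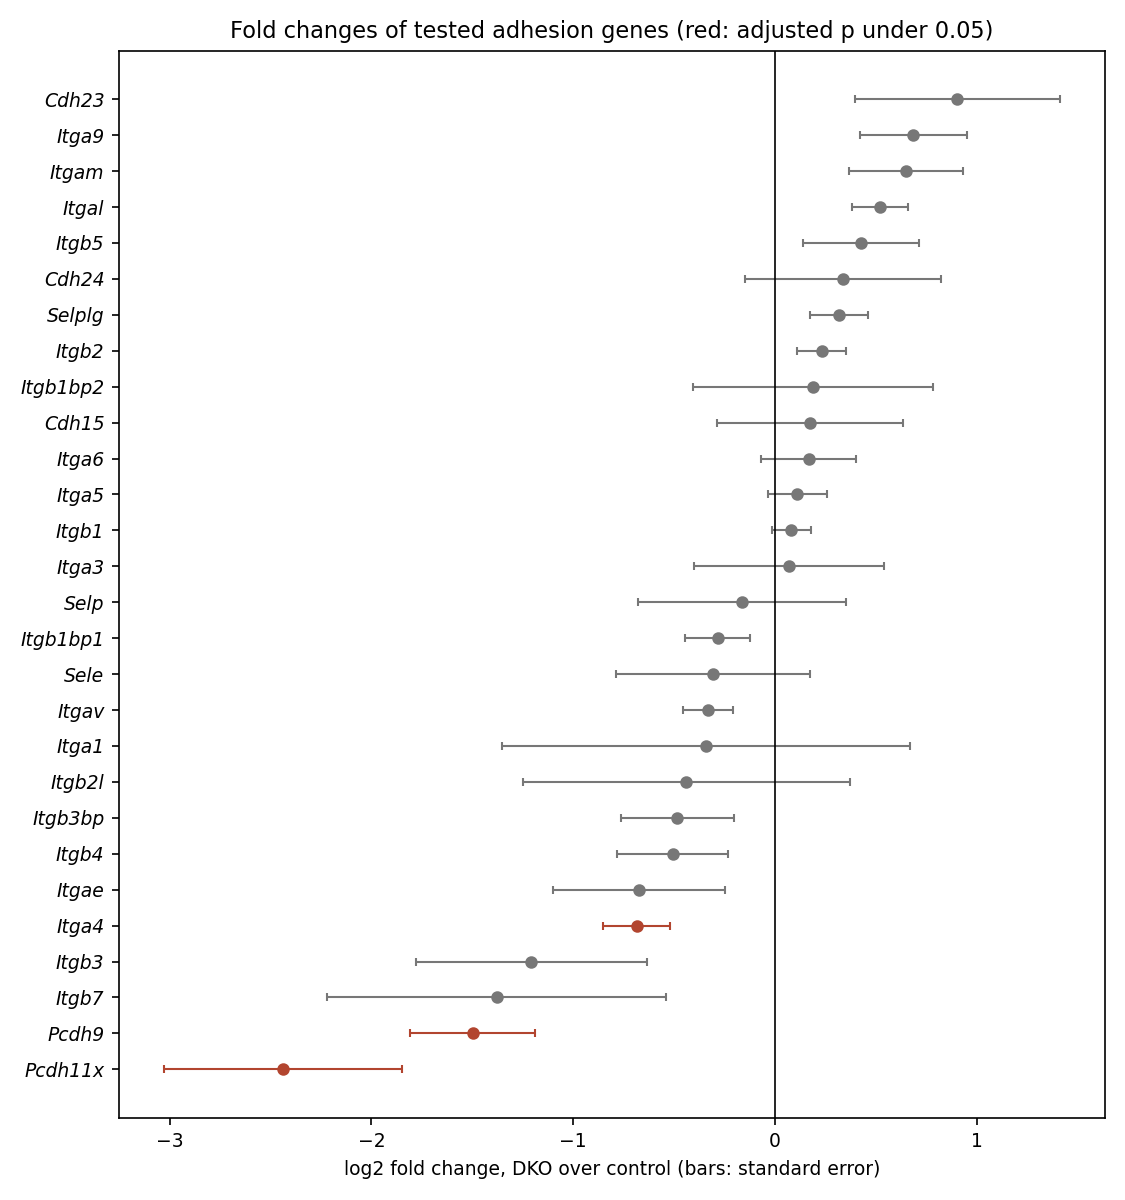
Log2 fold change, DKO over control, of tested adhesion genes (points) with the standard error (bars), ordered from the highest to the lowest. The 3 genes past the threshold, in red, are *Itga4* at -0.69, *Pcdh9* at -1.50 and *Pcdh11x* at -2.44, while no gene drawn above 0 is past it.

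*Itga4* encodes the alpha4 chain of VLA-4 and lies on the plus strand of chromosome 2, from 79255426 to 79333114 of GRCm38. DKO mice 1 to 4 had 70.9, 74.1, 69.6 and 74.1 CPM, against 77.4, 111, 155 and 121 CPM in control mice 1 to 4. The DKO mice lay close together and below every control mouse, but control mouse 1 came within a few CPM of them. The mean was 72.2 ± 2.27 CPM in DKO and 116 ± 32.1 CPM in control mice (SD, n = 4 each), a log2 fold change of -0.69 with a standard error of 0.17 (adjusted p = 0.0440, edgeR's quasi-likelihood test). With 1 mouse left out *Itga4* was past the threshold only without control mouse 1 (adjusted p = 0.00354), and the adjusted p was 0.0717 to 0.122 without each of the other 7 mice. Limma-voom gave an adjusted p of 0.0574. The exons share 166 bases (1.69% of the exon length) with *Cerkl* on the opposite strand, and which strand was counted is not known from the sources used here.

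None of the other alpha chains that pair with beta1 passed the test. *Itga5*, the chain of the fibronectin receptor, had 24.1, 26.0, 20.0 and 18.2 CPM in DKO mice 1 to 4, against 17.4, 24.2, 21.1 and 19.0 CPM in control mice 1 to 4, with groups that overlapped (log2 fold change 0.11, adjusted p = 0.724). *Itga6*, a laminin receptor chain, had 16.9, 14.6, 14.4 and 15.5 CPM in DKO mice and 7.26, 14.5, 19.4 and 13.6 CPM in control mice (log2 fold change 0.17, adjusted p = 0.743). Its lowest value was that of control mouse 1, without which the log2 fold change was -0.043. *Itga9*, whose chain binds tenascin-C and osteopontin among others, was higher in DKO mice 1 to 3, with 5.85, 5.44 and 5.89 CPM, and had 4.07 CPM in DKO mouse 4, against 2.11, 2.79, 4.83 and 3.48 CPM in control mice 1 to 4, where mouse 3 lay above the lowest DKO mouse (log2 fold change 0.68, standard error 0.27, adjusted p = 0.175).

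*Itgav*, the alphav chain of the vitronectin receptors, was slightly lower in each DKO mouse, with 10.5, 9.58, 9.16 and 10.1 CPM, against 11.7, 13.4, 12.7 and 11.6 CPM in control mice 1 to 4. The groups did not overlap, but the difference was small and did not pass the test (log2 fold change -0.33, standard error 0.12, adjusted p = 0.160). *Itga3*, a laminin receptor chain, had 0.924 to 1.55 CPM in DKO and 0.563 to 2.40 CPM in control mice. *Itga1*, a collagen receptor chain, had at most 0.462 CPM in DKO and 0.441 CPM in control mice. *Itgae*, which pairs with beta7 on lymphocytes of epithelia, had 0.429 to 0.733 CPM in DKO and 0.564 to 1.31 CPM in control mice (log2 fold change -0.67, adjusted p = 0.410).

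As a share of all alpha chains that can pair with beta1, counted per exon length, *Itga4* made up 40.0%, 41.3%, 43.1% and 45.5% in DKO mice 1 to 4, against 52.1%, 51.5%, 59.8% and 57.2% in control mice 1 to 4. The shares of the groups did not overlap. Control mouse 1, whose *Itga4* level was near that of DKO mice, was not near them in this share, but its sum of these chains was the lowest. The sum was 15.1 CPM per kilobase in control mouse 1, 21.5 to 26.4 in the other control mice and 16.4 to 18.3 in DKO mice. *Itga5* made up 28.4% ± 3.14 in DKO and 22.1% ± 3.80 in control mice, *Itga6* 14.8% ± 1.07 and 10.4% ± 1.78, and *Itga9* 4.33% ± 0.668 and 2.16% ± 0.345 (SD, n = 4 each). Shares depend on each other: where *Itga4* makes up less, the other chains make up more. They are of RNA and say nothing of pairs on the surface, and they were not tested.

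*Itgb1*, the beta1 chain itself, had 95.0, 85.4, 78.3 and 82.7 CPM in DKO mice 1 to 4, against 74.8, 84.4, 89.6 and 74.1 CPM in control mice 1 to 4. The groups overlapped over most of their range, and the log2 fold change was 0.079 with a standard error of 0.096 (adjusted p = 0.693). *Itgb2*, the beta2 chain of the leukocyte integrins, had 46.4, 47.6, 54.8 and 51.6 CPM in DKO mice, against 52.6, 41.5, 38.2 and 38.6 CPM in control mice 1 to 4. All DKO mice lay above control mice 2 to 4 and on either side of control mouse 1 (log2 fold change 0.23, adjusted p = 0.314). Together these chains were nearly all of the beta subunit RNA: *Itgb1* made up 50.6% in DKO and 52.0% in control mice and *Itgb2* 43.5% and 40.1%, per exon length.

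The alpha chains of the beta2 integrins were higher in DKO means, without passing the test. *Itgal*, the chain of LFA-1, which binds ICAM-1, lies on chromosome 7 from 127296260 to 127335137. DKO mice 1 to 4 had 17.1, 21.5, 25.6 and 23.9 CPM, against 15.7, 16.1, 13.6 and 15.9 CPM in control mice 1 to 4. Every DKO mouse was above every control mouse, DKO mouse 1 by the least (log2 fold change 0.52, standard error 0.14, adjusted p = 0.0589). The adjusted p was 0.0272 with the likelihood ratio test, 0.0146 with DESeq2 and 0.0770 with limma-voom, and with the quasi-likelihood test it was 0.0382 without DKO mouse 1.

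*Itgam*, the CD11b chain of Mac-1 and a marker of myeloid cells, had 34.2, 58.8, 56.1 and 62.5 CPM in DKO mice 1 to 4, against 18.3, 52.4, 35.6 and 28.5 CPM in control mice 1 to 4. Control mouse 2 lay among the DKO mice, and the log2 fold change of 0.65 (standard error 0.28) had an adjusted p of 0.225. The summed level of granulocyte markers was 311, 612, 2232 and 1804 CPM in DKO mice 1 to 4, against 2587, 422, 525 and 2821 CPM in control mice 1 to 4, and the control mice with the most of them had the least *Itgam*, while among DKO mice the one with the fewest had the least *Itgam*. Their part in the levels of *Itgam* was not tested. The markers of monocytes and macrophages summed to 295 to 762 CPM in DKO and 418 to 1033 CPM in control mice, and 13 of the 13 tested had log2 fold changes below 0, none past the threshold. The relative chains *Itgax* and *Itgad* were not tested, with at most 10 and 20 reads in any library, and *Itgad* shares exon bases with *Cox6a2*, a gene that rose in DKO cells (log2 fold change 2.70, adjusted p = 0.00761).

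**Figure D3:**
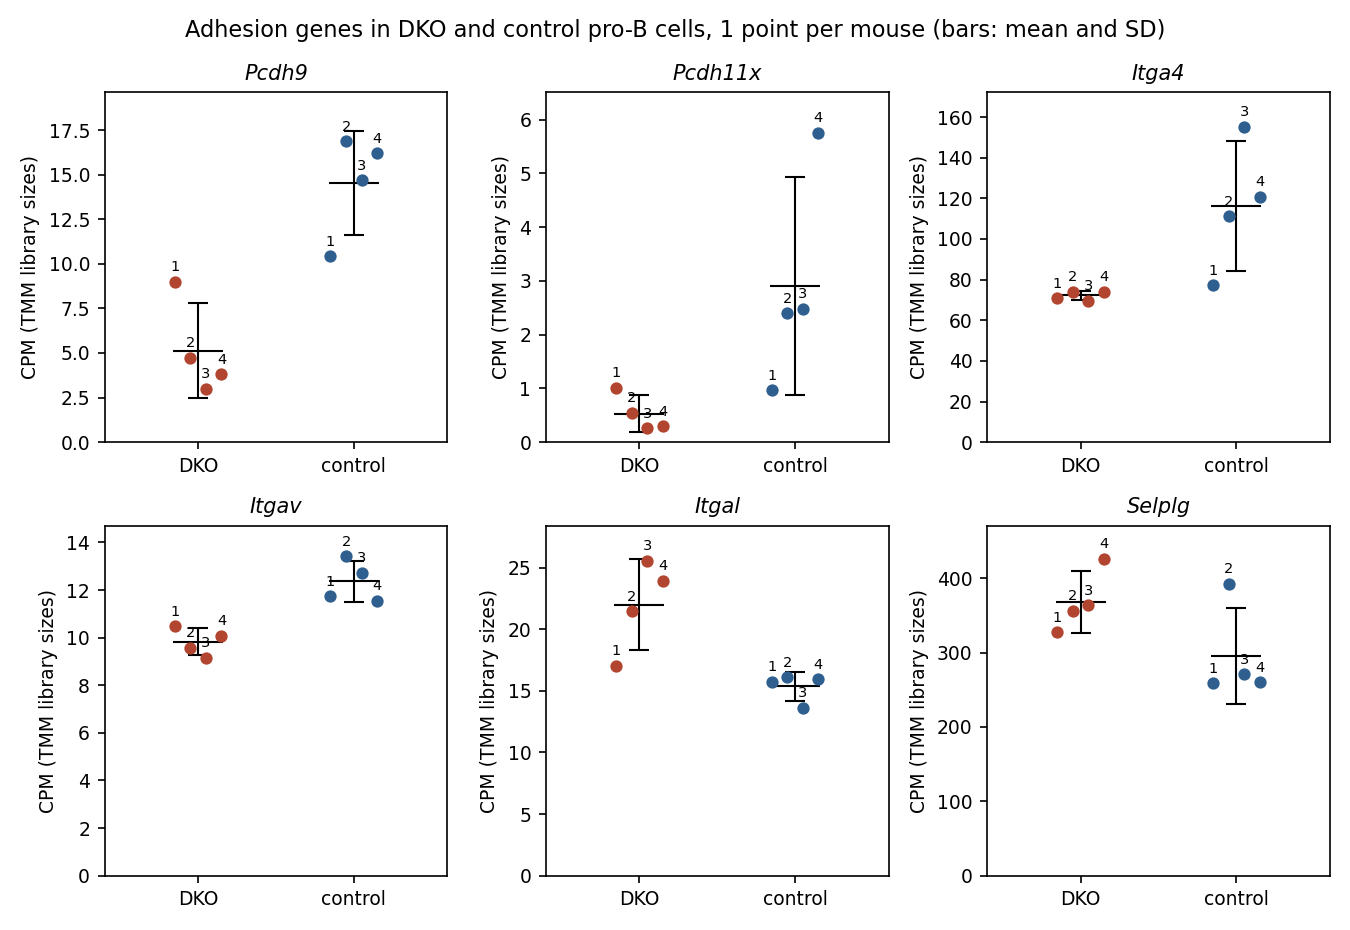
CPM per mouse of 6 adhesion genes, with DKO mice on the left and control mice on the right of each panel (numbers: mouse; bars: mean and SD; axes start at 0). DKO mice lie below control mice for *Pcdh9*, *Itga4* and *Itgav* and above them for *Itgal*, while for *Selplg* control mouse 2 lies among the DKO mice, and for *Pcdh11x* DKO mouse 1 at 1.02 CPM lies above control mouse 1 at 0.966 CPM.

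The remaining beta chains were low. *Itgb2l*, a beta2-like chain, had 0.231, 0.523, 1.77 and 1.77 CPM in DKO mice 1 to 4, against 1.98, 0.319, 0.328 and 3.20 CPM in control mice 1 to 4. High values stood in DKO mice 3 and 4 and control mice 1 and 4, the same 4 libraries in which the 10 granulocyte markers summed to over 1000 CPM. *Itgb7*, the partner of alpha4 and alphaE in gut homing, had 0.185, 0.523, 1.53 and 0.268 CPM in DKO mice, against 2.14, 0.294, 0.469 and 3.66 CPM in control mice, and was thus high in 3 of these 4 libraries. Their log2 fold changes of -0.44 and -1.38 had adjusted p values of 0.807 and 0.390, and with the granulocyte marker sum as a covariate, an alternative chosen after seeing the data, that of *Itgb2l* was 0.12. The part of granulocyte RNA in these values was not tested.

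*Itgb3* encodes the beta3 chain, which pairs with alphav and, in platelets, with the alphaIIb chain of *Itga2b*. It had 0.300, 1.20, 0.668 and 0.697 CPM in DKO mice 1 to 4, against 0.496, 3.26, 1.45 and 1.41 CPM in control mice 1 to 4 (log2 fold change -1.21, adjusted p = 0.272). *Itga2b* was not tested, and its reads numbered 4, 6, 30 and 0 in DKO mice, against 8, 80, 6 and 10 in control mice. Control mouse 2 was highest for both genes and also in the summed markers of megakaryocytes and platelets, with 61.9 CPM, against 7.51 to 12.4 CPM in DKO mice and 6.38 to 10.2 CPM in the other control mice. Their part in the levels of *Itgb3* was not tested.

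*Itgb5*, an alphav partner, had 3.05 to 5.15 CPM in DKO and 1.98 to 4.17 CPM in control mice (log2 fold change 0.43, adjusted p = 0.442). *Itgb4*, the beta4 chain that pairs with alpha6 in hemidesmosomes, had 1.66 to 3.05 CPM in DKO and 2.61 to 3.95 CPM in control mice (log2 fold change -0.51, adjusted p = 0.333), and 8.66% of its exon bases are shared with *B230344G16Rik* on the other strand. *Itgb6* and *Itgb8* had no read in any library. None of the 7 tested beta subunits passed any of the 4 tools, with 0 unadjusted p values under 0.05 by quasi-likelihood. Among the 10 tested alpha subunits 1 fell, 0 rose and 5 had an unadjusted p under 0.05, beside 1.93%, 2.65% and 20.2% of all tested genes.

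**Figure D4:**
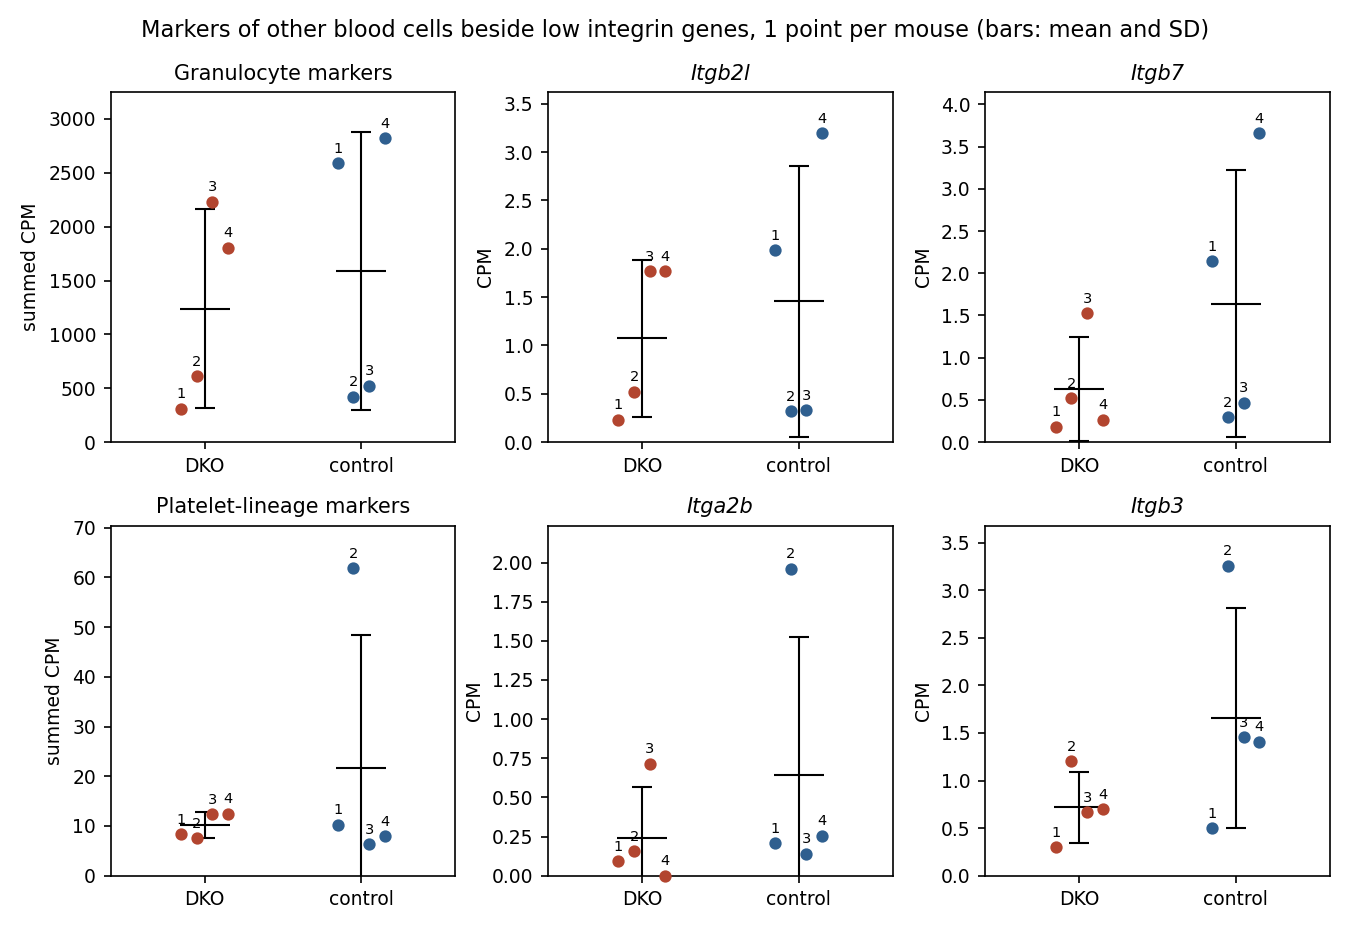
Summed CPM of granulocyte markers and of megakaryocyte and platelet markers beside CPM of *Itgb2l*, *Itgb7*, *Itga2b* and *Itgb3*, 1 numbered point per mouse with DKO left and control right (bars: mean and SD; axes start at 0). DKO mice 3 and 4 and control mice 1 and 4 are high for granulocyte markers and *Itgb2l*, and control mouse 2 is highest in the lower row.

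Both integrin-named genes of higher level were set apart by control mouse 1. *Itgb1bp1*, whose product ICAP-1 binds the beta1 tail and restrains it, had 137, 120, 133 and 146 CPM in DKO mice 1 to 4, against 231, 142, 134 and 146 CPM in control mice 1 to 4 (log2 fold change -0.28, adjusted p = 0.352). *Itgb3bp*, which was named for binding beta3 and encodes the centromere protein CENP-R, had 57.2, 51.7, 52.9 and 45.6 CPM in DKO mice, against 124, 36.9, 61.9 and 66.7 CPM in control mice (log2 fold change -0.48, adjusted p = 0.367). The groups overlapped for both. Of the exon bases of *Itgb1bp1*, 17.0% are shared with *Asap2* on the other strand.

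*Selplg*, encoding the selectin ligand PSGL-1, had 327, 356, 364 and 426 CPM in DKO mice 1 to 4, against 259, 392, 271 and 260 CPM in control mice 1 to 4. Control mouse 2 lay among the DKO mice and the other control mice below them all (log2 fold change 0.32, standard error 0.14, adjusted p = 0.247). Without control mouse 2 the log2 fold change was 0.48 and the adjusted p 0.0407. The endothelial selectin *Sele* had 0.406 to 0.697 CPM in DKO and 0.287 to 0.907 CPM in control mice, and the platelet and endothelial selectin *Selp* 0.310 to 0.602 CPM and 0.235 to 0.931 CPM, with overlapping groups.

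*Pcdh9*, a protocadherin known mostly from neurons, lies on the minus strand of chromosome 14 from 93013700 to 93890679. DKO mice 1 to 4 had 8.99, 4.74, 3.01 and 3.81 CPM, against 10.4, 16.9, 14.7 and 16.2 CPM in control mice 1 to 4. All DKO mice were below all control mice, and DKO mouse 1 and control mouse 1 came close to each other. The means were 5.13 ± 2.67 CPM in DKO and 14.5 ± 2.90 CPM in control mice (SD, n = 4 each), and the log2 fold change of -1.50 had a standard error of 0.31 (adjusted p = 0.0241, edgeR's quasi-likelihood test). *Pcdh9* was the only adhesion gene past the threshold with each of the 4 tools. With 1 mouse left out it was past the threshold when the mouse left out was control 1, control 3 or DKO 1 (adjusted p = 0.00451 to 0.0497), and at 0.0541 to 0.0726 without any of the other 5 mice. It is the tested member with the 8mer match printed above, and it fell, whereas the paper looked for direct targets among genes that rise. Of the 528 tested genes with an 8mer, 35 rose and 10 fell in the same test. The part of this match in the level of *Pcdh9* was not tested.

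*Pcdh11x*, an X-linked protocadherin, lies on chromosome X from 120290327 to 120910618. DKO mice 1 to 4 had 1.02, 0.549, 0.262 and 0.295 CPM, against 0.966, 2.40, 2.48 and 5.75 CPM in control mice 1 to 4. DKO mouse 1 was just above control mouse 1, so the groups overlapped, and the other DKO mice were below all control mice. The log2 fold change was -2.44 with a standard error of 0.59 (adjusted p = 0.0427). Reads numbered 44, 21, 11 and 11 in DKO mice, and control mouse 4 was the highest of all. Leaving out control mouse 1 gave an adjusted p of 0.0164 and leaving out DKO mouse 1 one of 0.0479, and it was 0.0645 to 0.123 without each of the other 6 mice. Limma-voom gave 0.0860.

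**Figure D5:**
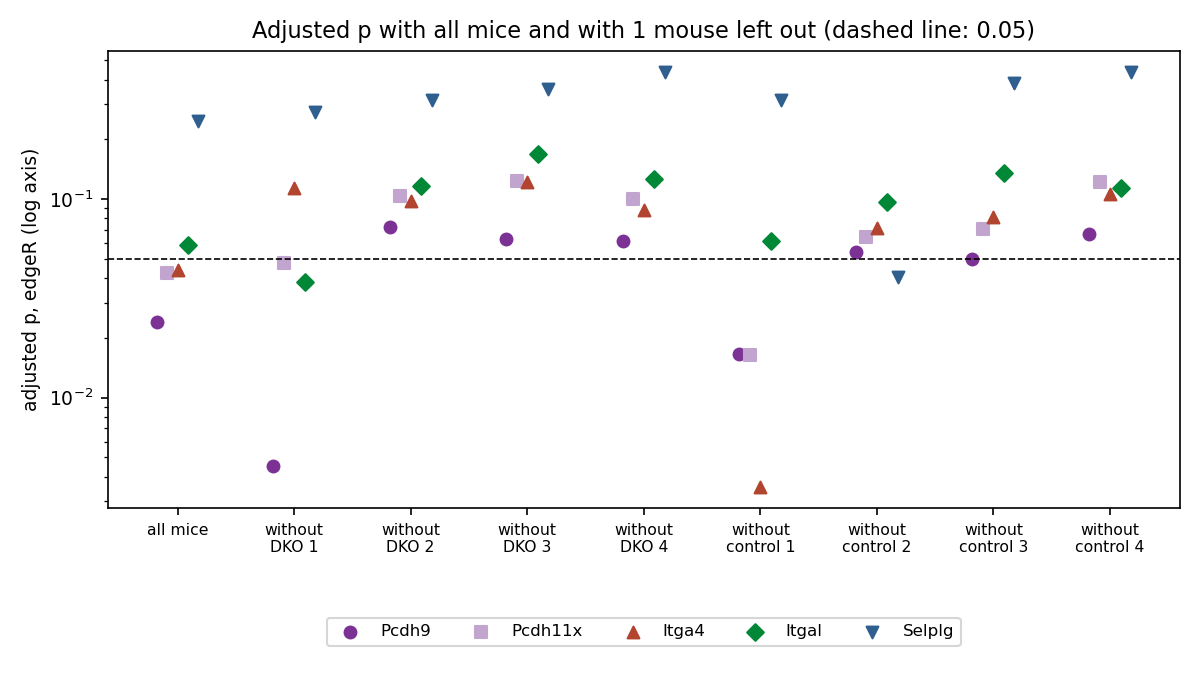
Adjusted p of edgeR's quasi-likelihood test (log axis) for *Pcdh9*, *Pcdh11x*, *Itga4*, *Itgal* and *Selplg* with all mice and with each mouse left out; the dashed line is 0.05. *Itga4* is under the line with all mice (0.0440) and without control mouse 1 (0.00354), and *Selplg* only without control mouse 2 (0.0407).

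*Xist*, transcribed from the inactive X chromosome, and the Y-linked genes split the mice across genotypes: DKO mice 3 and 4 and control mouse 1 had *Xist* below 1 CPM, and the other 5 mice had 68.8 to 94.9 CPM. The control mouse with the least *Itga4* was the one with low *Xist*. *Itga4* had 69.6 and 74.1 CPM in DKO mice against 77.4 CPM in the control mouse with low *Xist*, and 70.9 and 74.1 CPM in DKO mice against 111 to 155 CPM in the others. For *Itga4*, *Pcdh9*, *Itgal* and *Itgav* the groups did not overlap over all mice, and so could not overlap in either class. Those of *Pcdh11x* overlapped over all mice but in neither class. Within each genotype *Pcdh11x* was lower where *Xist* was low. DKO mice had 0.262 and 0.295 CPM with low *Xist* and 0.549 and 1.02 CPM otherwise. Control mouse 1 had 0.966 CPM, against 2.40 to 5.75 CPM in the other control mice. A class held 1 to 3 mice a group, where a lack of overlap comes easily, and no conclusion is drawn from it. The log2 fold change of *Pcdh11x* was -2.02 with *Xist* as a covariate, against -2.44 without it. In that fit *Pcdh9*, *Pcdh11x* and *Itga4* were past the threshold, *Itga4* only just (log2 fold change -0.57, adjusted p = 0.0496, edgeR's quasi-likelihood test). All 3 were also past it with the granulocyte marker sum as a covariate, a fit that called *Itgal* as well (adjusted p = 0.0272).

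The 15 pro-B markers summed to 35071 to 38594 CPM in DKO and 32863 to 37191 CPM in control mice. Of the 15, *Kit* and *Il7r* rose in DKO cells (13.3%, against 2.65% of all tested genes) and 13 did not pass. Log2 fold changes were above 0 for 8 and below 0 for 7, among the latter *Rag1* at -0.42 and *Rag2* at -0.33 (adjusted p = 0.158 and 0.124, edgeR's quasi-likelihood test). Of the 12 tested markers of later B cells, 4 fell and 1 rose, where 1.93% and 2.65% of all tested genes did. The markers of plasmacytoid dendritic cells summed to 17.4 to 30.3 CPM in DKO and 2.06 to 6.32 CPM in control mice through *Pacsin1* and *Cox6a2*, while *Siglech*, which defines these cells, had at most 0.733 CPM in DKO and 1.83 CPM in control mice. The part of these marker shifts in the adhesion genes was not tested. In bulk RNA, fewer cells of a type and less RNA per cell cannot be told apart.

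Most cadherins gave few reads or none. Of 23, 13 had no read in any library, 7 had reads below the filter, the most abundant being *Cdh17* with 8 to 28 reads in DKO and 0 to 8 in control mice, and 3 were tested. *Cdh15*, or M-cadherin of muscle, had 0.620 to 2.33 CPM in DKO and 0.835 to 1.64 CPM in control mice. *Cdh23*, a tip-link protein of hair cells, had 0.763, 0.419, 0.859 and 0.482 CPM in DKO mice 1 to 4, against 0.261, 0.564, 0.164 and 0.358 CPM in control mice 1 to 4, with the highest log2 fold change of the 29 genes (0.90, standard error 0.51, adjusted p = 0.351). *Cdh24* had 0.392 to 1.05 CPM in DKO and 0.307 to 0.858 CPM in control mice (log2 fold change 0.34, adjusted p = 0.747). None of the 3 passed any of the 4 tools or had an unadjusted p under 0.05. *Cdh1*, the E-cadherin of epithelia, had 0, 4, 0 and 0 reads in DKO mice, against 14, 0, 0 and 2 in control mice, and *Cdh2*, the N-cadherin, at most 4 in any library.

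Of the 12 protocadherins, *Pcdh9* and *Pcdh11x* were tested, 6 had no read and 4 stayed below the filter, with at most 10 reads in any library, those of *Pcdh19* in control mouse 3. Among the alpha subunits *Itga8* had no read and 7 were below the filter, of which *Itga2b* was the most abundant. *Itga7* had 16 reads in control mouse 2 and 0 in all others. A count of 0 allows up to 3 reads, or about 0.0693 to 0.0804 CPM at these depths, for counting error only.

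Integrins are switched on by talin, kindlins and their adaptors. Of 44 such genes 38 were tested and 0 passed the quasi-likelihood test in either direction (median log2 fold change -0.023). Over all tested genes 2.65% rose and 1.93% fell in that test, and the median log2 fold change was -0.015. An unadjusted p under 0.05 was found for 8 of the 38, beside 20.2% of all tested genes. The likelihood ratio test called 2 lower, DESeq2 1 and limma-voom 0, where they called 3.63%, 4.47% and 1.77% of all tested genes lower. These were *Skap1* and, with the likelihood ratio test, *Ptk2*, which encodes focal adhesion kinase. *Skap1*, an adaptor of LFA-1 activation in T cells, had 0.277, 0.523, 0.358 and 1.61 CPM in DKO mice 1 to 4, against 3.89, 1.45, 1.88 and 1.84 CPM in control mice 1 to 4 (log2 fold change -1.71, adjusted p = 0.117), and *Ptk2* averaged 0.177 CPM in DKO and 0.559 CPM in control mice (adjusted p = 0.121). The next smallest p values were those of *Skap2* and *Lims1*, with log2 fold changes of 0.22 and 0.20 and DKO mice all above control mice.

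Of 27 integrin ligands, which progenitor cells may also carry themselves, 16 were tested and 0 passed, where 2.65% of all tested genes rose and 1.93% fell. An unadjusted p under 0.05 was found for 6, beside 20.2% of all tested genes. The median log2 fold change was -0.21, beside -0.015 for all tested genes. *Emilin1*, *Cd44* and *F11r* had log2 fold changes of 0.53, 0.63 and 0.64 and adjusted p values of 0.0569, 0.0672 and 0.0672. *Thy1* had 1.32 ± 0.372 CPM in DKO and 2.67 ± 0.690 CPM in control mice (SD, n = 4 each; adjusted p = 0.103). The likelihood ratio test and DESeq2 each called 3 ligands higher and 1 lower, and limma-voom 0. Over all tested genes the likelihood ratio test called 4.08% higher and 3.63% lower, and DESeq2 5.30% and 4.47%.

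For selectin ligands and the enzymes that glycosylate them, 19 of 28 were tested, 1 rose (5.26%, against 2.65% of all tested genes) and 0 fell. *Galnt1*, which starts O-glycans, had 73.8, 69.8, 73.6 and 68.3 CPM in DKO mice 1 to 4, against 58.0, 55.8, 53.6 and 58.1 CPM in control mice 1 to 4. The groups were far apart relative to their spread (log2 fold change 0.34, standard error 0.079, adjusted p = 0.0363), yet the call was lost (adjusted p = 0.0541 to 0.123) without any 1 of 7 mice and kept without control mouse 1. It was also lost with library size scaling (0.0574) and with no filter on low counts (0.0538). *Cd24a*, a P-selectin ligand in mouse myeloid cells, averaged 1617 CPM in DKO and 1149 CPM in control mice with groups that did not overlap (log2 fold change 0.49, adjusted p = 0.0565), and *Tpst2*, which sulfates tyrosines, had a log2 fold change of -0.32 (adjusted p = 0.261).

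Among the pathway lists the one with most calls was that of the shedding and trafficking of adhesion receptors. Of its 22 tested genes 3 rose (13.6%, against 2.65% of all tested genes) and 0 fell. This list, like the others, was drawn up with earlier results of these data known, so its share is not an independent result on the pathway. *Acap1*, which helps recycle beta1 integrin to the surface, had 83.7, 94.1, 132 and 106 CPM in DKO mice 1 to 4, against 55.9, 43.9, 47.0 and 60.9 CPM in control mice 1 to 4. The groups did not overlap (log2 fold change 1.00, standard error 0.15, adjusted p = 0.00550). *Arf6*, the small GTPase of the same recycling route, had 333, 370, 389 and 386 CPM in DKO mice, against 250, 260, 244 and 267 CPM in control mice (log2 fold change 0.53, standard error 0.083, adjusted p = 0.00637). Both stayed past the threshold with any 1 mouse left out. *Rhbdf2*, encoding iRhom2, which brings the sheddase ADAM17 to the surface, had 34.1, 31.7, 25.8 and 28.0 CPM in DKO mice, against 18.6, 21.1, 21.6 and 18.8 CPM in control mice (log2 fold change 0.58, standard error 0.12, adjusted p = 0.0200). Its adjusted p was 0.0633 to 0.0701 when control 4, DKO 1 or DKO 2 was left out. *Ezr*, encoding ezrin, which links membrane proteins to actin, had a log2 fold change of 0.26 (adjusted p = 0.102).

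Of 29 catenins and other cadherin partners 14 were tested and 0 passed with edgeR's tests, DESeq2 or limma-voom (median log2 fold change 0.0014). By quasi-likelihood 2.65% of all tested genes rose and 1.93% fell, with a median log2 fold change of -0.015. An unadjusted p under 0.05 was found for 3 of the 14 by quasi-likelihood, beside 20.2% of all tested genes. *Pkp3* (plakophilin 3), *Jup* (plakoglobin), *Ctnna1* (alpha-catenin) and *Clstn1* (calsyntenin 1) had the smallest p values, with log2 fold changes of -0.39, 0.57, 0.22 and -0.51 and adjusted p values of 0.120 to 0.272.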

How the data were processed

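RNA of sorted pro-B cells was measured in 4 DKO and 4 control mice, grouped by genotype label; mice of both sexes were used. The authors deposited raw counts per gene with positions and exon length (another unit, used to scale levels), after trimming, alignment and counting with Trimmomatic, STAR and featureCounts per the submitters' processing notes; their versions and the strand counted are not known from the sources used here. The notes name GRCm39, but all 70 members overlap their RefSeq positions in GRCm38.p6, so positions are given as GRCm38. The kit amplifies RNA before sequencing, so counts are not independent molecules, and counting limits cover counting error only.

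Counts were normalized by TMM, filtered with filterByExpr (minimum count 10, minimum total 15) to 12714 genes, and tested by edgeR 4.0.16 (quasi-likelihood test, R 4.3.3) with genotype as the only term and Benjamini-Hochberg adjustment over all 12714 genes (threshold 0.05). Log2 fold changes carry a prior count of 0.125. Their standard errors were derived from the test, as the size of the fold change over the square root of the F statistic. They thus add nothing to the p values. Per-sample columns of no sample numbered 0, 1 member of the 29 tested is not reported here, and replicates differed by more than sampling noise. Genes near 3 counts rest on a few reads.

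The text names members past the threshold or with a mean of at least 5 CPM, their integrin partners, the 2 others with the largest fold change in each direction, and up to 4 genes of smallest p per list. *Sele*, *Selp*, *Cdh15*, *Cdh1*, *Cdh2* and other genes outside that rule were named to complete their families. Members and lists were chosen with earlier results of these data known. Alternatives were the likelihood ratio test, DESeq2 1.42.0, limma-voom 3.58.1, further size factors and filters, the robust version of the fit, a replicate block, *Xist* (log2 CPM plus 0.1) or, added after seeing the data, granulocyte markers as a covariate, leaving out 10 hemoglobin genes, and leaving out each mouse.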

Additional observations from a re-analysis of the deposited data

Results flagged for a closer look

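Among the 25 tested adhesion genes named by rule, 50 groups of 4 mice were checked for 1 mouse far from the others, that is, a gap past Dixon's 95% limit for 4 values as a share of the group's whole range, which chance gives in about 1 of 20 groups. In 4 groups this was so. *Itga3* in DKO mouse 1 was at 0.924 CPM, against 1.50 to 1.55 CPM in the other DKO mice, a gap of 0.919 of the range. *Selplg* in control mouse 2 was at 392 CPM, against 259 to 271 CPM in the other control mice (0.911). *Itgb1bp1* in control mouse 1 was at 231 CPM, against 134 to 146 CPM (0.884). *Itgal* in control mouse 3 was at 13.6 CPM, against 15.7 to 16.1 CPM (0.852).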

How the results depend on the processing

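Over all tested genes, 337 rose and 245 fell: 519 and 461 with the likelihood ratio test, 674 and 568 with DESeq2, 559 and 506 with *Xist* as a covariate, and 142 to 493 and 84 to 398 with 1 mouse left out. Adhesion genes that rose numbered 2 with the likelihood ratio test and DESeq2, 1 with the granulocyte covariate and 0 to 1 with 1 mouse left out, against 0. Those that fell numbered 1 with limma-voom and 0 to 3 with 1 mouse left out, against 3; none was left without DKO mouse 2, 3 or 4 or control mouse 2 or 4. Same-numbered mice did not deviate together over all genes (correlations -0.20, 0.05, -0.18 and -0.03). The labels do not say whether the numbers pair the mice, and this check could not show a weak pairing. With the replicate number as a block 94 genes rose and 54 fell. In that fit 0 of the adhesion genes fell, and *Galnt1* was at an adjusted p of 0.162 (edgeR's quasi-likelihood test). Signs turned only for genes that passed no test: *Itga1* (-0.34; 0.062 with *Xist*, -1.30 to 0.11 with 1 mouse left out, above 0 without DKO mouse 2 or 3 or control mouse 2), *Itga3* (0.070; -0.18 to 0.54, below 0 without control mouse 1 or 3), *Itga6* (0.17; -0.043 to 0.38, below 0 without control mouse 1) and *Itgb2l* (-0.44; 0.12 with the granulocyte covariate, -0.80 to 0.29 with 1 mouse left out, above 0 without control mouse 4). The cause was not tested. Other normalizations and filters and the robust fit kept *Pcdh9*, *Pcdh11x* and *Itga4* as the calls. Leaving out the 10 hemoglobin genes gave the same values as the main fit. The same 12714 genes were tested, none of them a hemoglobin gene, so that fit could not differ and is no check.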
